A study of Mus musculus with 13 samples.

Results

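Whole organoids grown from ISC-Cre Apc-null mice were compared with intestinal stem cells (ISCs) sorted from mice of the same genotype. The libraries were chosen by their titles, and they are 2 organoid and 3 duodenal ISC libraries out of the 13 bulk RNA-seq libraries of the series. The series was made to examine the loss of Apc across cell types and surroundings in the mouse intestine. The present pair keeps the Cre driver and genotype constant while the setting changes from culture to tissue.

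Mice of both groups were adults with the genotype Lgr5eGFP-CreERT2;Apcfl/fl;Rosa26tdTomato, and each received 2 doses of 1 mg tamoxifen. The Cre is produced from the Lgr5 locus, so floxed Apc is deleted in cells that use Lgr5 at the time of treatment and in their descendants, and a red reporter is switched on in the same cells. The organoids were grown from ileal crypts and carry the time label 10 days post induction (dpi), while the series text counts those days from plating. The ISCs came from the duodenum at 14 dpi and were isolated by flow cytometry. The extraction text names the duodenum alone for all samples and gives TrypLE as the dissociation enzyme for the Lgr5_ApcKO samples and collagenase for the others. Setting, gut region, time, cell selection, dissociation and the strandedness of the libraries (given below) therefore change together. Their parts in any difference below cannot be told apart. In bulk RNA, fewer cells of a type and less RNA per cell cannot be told apart either.

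Apc is a scaffold of the complex that marks beta-catenin for destruction, and without it beta-catenin and the TCF factors keep Wnt target genes switched on. Crypt-base ISCs depend on this pathway, with Lgr5 as their receptor and Ascl2 as a transcription factor of the same cells. The position of a cell along the gut is recorded in Hox genes and in factors such as Gata4, which is active in the proximal small intestine and silent in the distal ileum. Cultured epithelium lacks microbes, immune cells and mesenchyme, and is known to lean towards growth and fetal-like programmes.

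Gene counts were 17869369 and 20915624 per organoid library and 21580486 to 27336750 per ISC library. Reads fell on the second strand for 48.42% to 49.73% of stranded counts in organoids and for 98.50% to 98.85% in the ISCs, although the labels give a non-directional kit for all. Multimapping reads made up 5.10% to 5.12% of organoid reads and 12.9% to 17% of ISC reads. ISC replicate 3 stood apart: the ribosomal RNA gene Rn45s took 5.26% of its gene counts and 0.271% to 0.950% in the other 4 libraries, and its log2 values correlated with those of the other ISC replicates at 0.955 and 0.959, against 0.987 between those. Both groups held libraries of both sexes by Xist and Y-linked genes. The organoid replicates differed in sex, as did ISC replicate 1 from ISC replicates 2 and 3, so these did not come from the same animal. For the other replicates the labels do not say whether animals or cultures differed, and spread between them could be technical.

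The targeted gene, Apc, was read at 215 and 276 CPM (the count scaled to the library's size) in organoids and at 278, 194 and 533 CPM in ISC replicates 1 to 3, with overlapping groups. Its log2 fold change, organoids minus ISCs, was -0.45 ± 0.42 (SE; edgeR quasi-likelihood test with Benjamini-Hochberg adjustment, adjusted p = 0.518). Without ISC replicate 3 it was 0.054. Since both groups carry the same floxed allele and the deposited values are totals per gene, this gene does not check the labels here.

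Of 14433 genes tested, 2109 (14.6%) passed the edgeR quasi-likelihood test at an adjusted p of 0.05, and a gene is said below to rise, fall or be called only on that test. In organoids 971 (6.73%) were higher and 1138 (7.88%) were lower, and 1123 (7.78%) of the tested genes were called and changed at least 4-fold (3.22% higher, 4.56% lower). In 51.9% of tested genes the groups did not overlap. The number of calls was 527 without organoid replicate 1, 507 without organoid replicate 2, 1161 without ISC replicate 1, 1400 without ISC replicate 2 and 4744 without ISC replicate 3. Every called gene that could be retested kept its direction in these 5 fits. Counts of list members in these fits, given below, are to be read beside these totals, which moved with the library left out. Over all genes, 508 of 14126 were higher without ISC replicate 1 and 2208 of 14421 without ISC replicate 3. Of 133 genes named by rule, 120 were called and 66 kept the call with each library left out in turn. The 44 lost without organoid replicate 1 and the 50 lost without organoid replicate 2 are marked below where they are described. A fold change here is a log2 value of organoids minus ISCs unless said otherwise, and levels are CPM, which compare a gene between libraries and not different genes.

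Genes of gut position were among those with large differences. The posterior Hoxb genes were on in the organoids and nearly silent in the ISCs, and the Hoxa genes had the opposite pattern. Of 18 Hox genes tested (35 in the list), 8 rose and 8 fell, where 6.73% and 7.88% of all genes did; the median log2 fold change was -3.30, or -1.78 with genes at 0 in a group set at their bound, against -0.06 over all genes. Hoxb8 (chromosome 11:96281905-96285315, plus strand, GRCm38) had 63.8 and 86.3 CPM in organoids and no count in any ISC library. Against a floor of 3 counts over the ISC group, it was at least 1790-fold higher in organoids (adjusted p = 0.000638). Hoxb9, its upstream neighbour (chromosome 11:96271457-96276595, plus strand), had 95.8 and 129 CPM in organoids and 0.0752, 0.0716 and 0 CPM in the ISCs (10.87 ± 0.46, adjusted p = 0.0002). Hoxb6 stood at 60.2 and 58.0 CPM against 0.0752, 0.0716 and 0.167 CPM. Hoxb7 and Hoxb5 rested on 1 to 3 ISC counts, giving ratios of 646 (95% counting interval 220 to 3140) and 1520 (271 to 60000). These counts leave no overlap between the groups for any of the 5 Hoxb genes.

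In the other cluster, Hoxa9 (chromosome 6:52223100-52231089, minus strand) had no count in either organoid library and 9.85, 10.2 and 8.62 CPM in the ISCs. It was at least 131-fold lower in organoids (adjusted p = 0.00121). Hoxa7 was at 0 in organoids against 6.20, 10.0 and 8.68 CPM, at least 112-fold lower, and Hoxa10 was at least 48.0-fold lower. Hoxa5 fell from 13.5, 16.7 and 28.1 CPM in ISCs to 0.182 and 0 CPM in organoids. Levels in the other libraries, scaled over all 13, place these values: Hoxb9 had 65.7 and 20.6 CPM in WT ileal ISCs and 8.07 and 1.84 CPM in WT organoids, and 0.532 and 0.956 CPM in Sec-Cre Apc-null organoids. Hoxa9 was at 0 in both WT organoid libraries and at 0 and 0.306 CPM in WT ileal ISCs. So Hoxb9 was read in samples labelled ileal with intact Apc as well. Hoxa9 above 1 CPM was read only in the 3 duodenal ISC libraries of the 13. The Hox counts were similar without single libraries, with 7 or 8 higher in all 5 fits; 5 were lower without organoid replicate 1 or 2.

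Gata4, the factor of proximal identity, had 29.9 and 21.1 CPM in organoids and 172, 150.5 and 220.5 CPM in ISCs (-2.83 ± 0.29, adjusted p = 0.0016). Both organoid libraries lay far below all 3 ISC libraries, yet above 0. Onecut2, a proximal factor related to the hepatocyte nuclear factors, had 5.27 and 13.2 CPM against 196, 133 and 267 CPM. Pdx1, the duodenal and pancreatic homeobox factor, was at 0 in organoids and at 4.17, 4.08 and 7.68 CPM in ISCs, at least 67.7-fold lower. Of the 19 genes listed as duodenum-enriched, 0 rose and 9 fell (median log2 fold change -2.17), and 5 fell without organoid replicate 1 or organoid replicate 2.

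Distal genes moved the other way, in a list that also holds Hoxb6, Hoxb7, Hoxb8 and Hoxb9. These Hoxb genes, described above, are among its members that rose, so the list is not a separate result. Its members Fabp6, Plb1, Gcg and Pyy were below the filter. Of 13 tested ileum-enriched genes, 8 rose and 2 fell (median 3.00), and 7 or 8 rose with any library left out. Osr2 had 70.3 and 33.3 CPM in organoids and 5.83, 5.30 and 8.29 CPM in ISCs (3.00 ± 0.38, adjusted p = 0.0032). Nts, which encodes neurotensin, had 91.5 and 47.2 CPM against 1.54, 1.29 and 1.45 CPM (5.6 ± 0.36, adjusted p = 0.000562). Slc51a and Slc51b, the subunits of the basolateral bile acid exporter and textbook ileal genes, were the 2 members that fell. Slc51b had 1 organoid count in all and 1.5 to 3.78 CPM in ISCs, and both calls were lost without either organoid library (adjusted p = 0.0656 to 0.190), that of Slc51a also without ISC replicate 1 or 2.

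**Figure D1:**
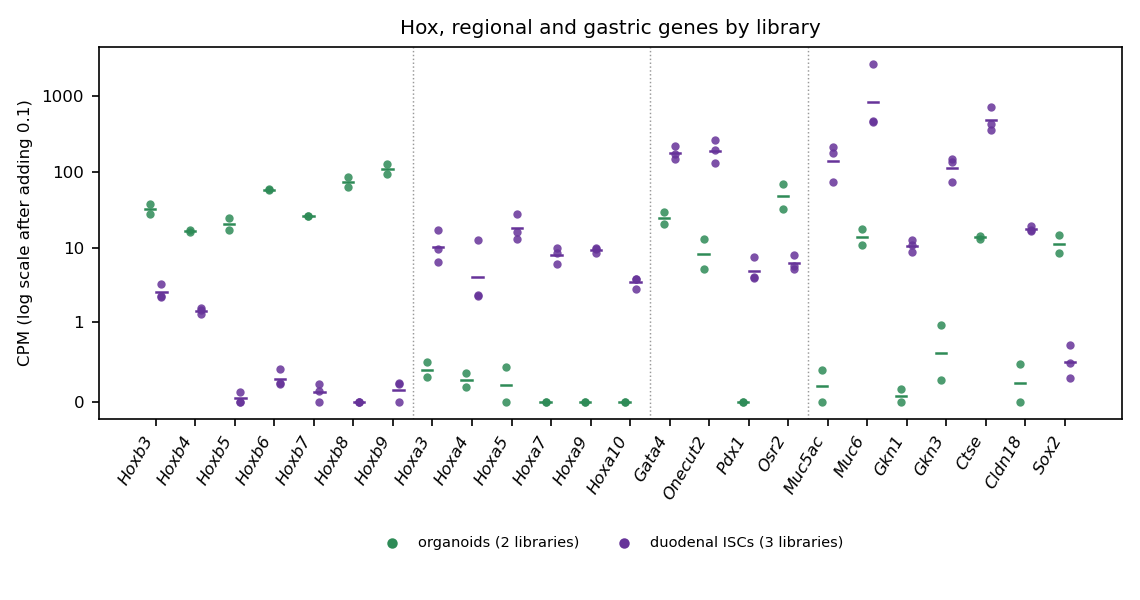
CPM of Hox, regional and gastric genes in the 2 organoid and 3 duodenal ISC libraries (vertical axis, log scale after adding 0.1; each point is 1 library and short lines are group means on the plotted scale). Hoxb genes sit high in organoids and Hoxa, Gata4 and gastric genes sit high in the ISCs, with Sox2 as the exception among the last.

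The sorted duodenal ISCs also held transcripts of gastric epithelium. Of 13 gastric and foregut genes tested, 7 fell in organoids and 1 rose (median -5.31), and 6 fell without either organoid library. Muc5ac, the mucin of gastric surface cells, had 177, 74.4 and 215 CPM in ISCs and 0 and 0.162 CPM in organoids, a ratio of 1990 to 1 (95% counting interval 679 to 9630). Muc6, the gland mucin, had 468, 452 and 2610 CPM against 17.9 and 11.1 CPM, with ISC replicate 3 highest; its call was lost without organoid replicate 1 (adjusted p = 0.0675) or organoid replicate 2 (0.0795). Ctse, an aspartic protease of the stomach lining, fell by 5.16 on the log2 scale, and Pgc, which encodes a pepsinogen, fell by 5.31. Gkn1 and Cldn18, both typical of gastric epithelium, had 8.90 to 13 and 16.9 to 20 CPM in ISCs and at most 0.215 CPM in organoids. Tff1, by contrast, was below the filter, with 57, 6 and 0 counts in the ISCs. The summed level of the list was 1025 to 3197 CPM in ISCs, 32.7 to 44.8 CPM in organoids and 0.815 to 1.47 CPM in WT ileal ISCs. The member that rose was Sox2, a foregut transcription factor, at 14.8 and 8.62 CPM in organoids against 0.451, 0.107 and 0.223 CPM (5.46 ± 0.63, adjusted p = 0.00222). Whether gastric or Brunner's gland cells entered the sort was not tested.

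Core feedback targets of the Wnt pathway were not called in either direction. Axin2, a negative regulator induced by beta-catenin, had 888 and 925 CPM in organoids and 898, 797 and 864 CPM in ISCs (0.09 ± 0.21, adjusted p = 0.811). Nkd1, an inhibitor of Dishevelled, had 883 and 705 CPM against 1201, 1137 and 1044 CPM, and Notum, the secreted Wnt deacylase, had 709.6 and 450 CPM against 780.4, 884 and 550.3 CPM. Neither passed the test (adjusted p = 0.177 and 0.492), which does not show that they were equal. Of 30 tested Wnt/beta-catenin targets, 7 rose and 5 fell (median -0.20). Without organoid replicate 1 the counts were 4 and 1, without organoid replicate 2 they were 4 and 0, and without ISC replicate 2 they were 6 and 3.

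The Wnt targets that rose included secreted regulators, cell cycle genes and Ascl2, which is described below. Ccnd2 rose by 0.79 (adjusted p = 0.0483), while the Dkk family gene Dkk3 fell by 1.33 (adjusted p = 0.0327). Both calls were lost without organoid replicate 1 or organoid replicate 2, and that of Ccnd2 also without ISC replicate 1 or 2. Dkk2, a secreted Wnt modulator, had 151 and 127 CPM in organoids and 5.26, 3.98 and 1.11 CPM in ISCs (5.31 ± 0.55, adjusted p = 0.0016). Wnt10a, a ligand, had 92.4 and 71.7 CPM against 6.05, 5.62 and 1.28 CPM (4.23 ± 0.56, adjusted p = 0.00397). Apcdd1, a membrane inhibitor of Wnt signalling, had 310.5 and 368 CPM against 75.0, 50.3 and 82.4 CPM. In each of these the organoid libraries lay above every ISC library. Ccnd1, which encodes cyclin D1, had 762 and 781 CPM against 155, 208 and 145 CPM (2.19 ± 0.24, adjusted p = 0.00188). The ligand gene Wnt6 had 389.5 and 227 CPM against 96.5, 81.6 and 35.4 CPM, and its call was lost without organoid replicate 1 (adjusted p = 0.140) or organoid replicate 2 (0.0529). Lbh, a transcriptional cofactor, fell by 2.97 and Bambi, a decoy receptor for TGF-beta family ligands, fell by 1.27; both calls were lost without organoid replicate 2, and that of Bambi also without organoid replicate 1, ISC replicate 1 or ISC replicate 2.

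Markers of the crypt-base stem cell split. Lgr5 had 116.5 and 90.5 CPM in organoids and 265, 260.5 and 292 CPM in ISCs, so every sorted library was higher (-1.40 ± 0.23, adjusted p = 0.00852). The Cre and eGFP sit in the Lgr5 locus of both groups, and eGFP-based sorting would itself select Lgr5 transcription; the labels do not say which marker set the gate. Ascl2 went the other way, at 82.4 and 87.3 CPM against 34.4, 46.2 and 28.4 CPM (1.2 ± 0.25, adjusted p = 0.0192). Both calls were lost without organoid replicate 1 or 2 (adjusted p = 0.0738 to 0.140), and that of Ascl2 also without ISC replicate 1 (0.0741). Olfm4, a further stem cell marker, had 124 and 50 CPM against 81.6, 119 and 97.0 CPM, with overlapping groups. Gkn3, a stomach protein that also marks proximal ISCs, fell from 73.7, 149 and 137 CPM in ISCs to 0.0908 and 0.916 CPM (-7.94 ± 0.78, adjusted p = 0.00144). Aqp4, a water channel of crypt-base cells, fell by 2.00, a call lost without organoid replicate 2 (adjusted p = 0.0551). Phlda1 rose, at 522 and 499 CPM against 134, 144 and 90.4 CPM (2.06 ± 0.26). In all, 3 of 22 stem cell markers rose and 6 fell (median -0.31); 1 rose and 2 fell without organoid replicate 1, 1 and 1 without organoid replicate 2, 1 and 4 without ISC replicate 1, 2 and 3 without ISC replicate 2, and 5 and 9 without ISC replicate 3.

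Genes of fetal and regenerating epithelium rose more often than they fell, but not as a block. Of 27 tested, 9 rose and 2 fell (median 0.69), and the counts were 5 and 1 without either organoid library and 14 and 4 without ISC replicate 3. Anxa1, an annexin of regenerating epithelium, had 391 and 501 CPM in organoids and 67.3, 55.4 and 64.2 CPM in ISCs (2.84 ± 0.22, adjusted p = 0.000943). Anxa3 had 149 and 217 CPM against 25.7, 21 and 15 CPM, and Msln, which encodes mesothelin, had 191 and 208 CPM against 20.6, 18.1 and 8.96 CPM. Ly6a, the fetal-state marker Sca-1, had 158 and 265 CPM against 3.16, 6.16 and 13.4 CPM, and this value is uncertain because the gene shares sequence with related genes. For these 4 genes the groups did not overlap. Clu, the revival stem cell marker clusterin, was among the 2 that fell, at 432 and 354 CPM against 1460, 2228 and 4139 CPM (-2.73 ± 0.47, adjusted p = 0.0103; 0.0880 and 0.103 without organoid replicate 1 and 2). Igf2bp1, an RNA-binding protein of fetal tissue, fell by 4.68 (adjusted p = 0.00169).

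**Figure D2:**
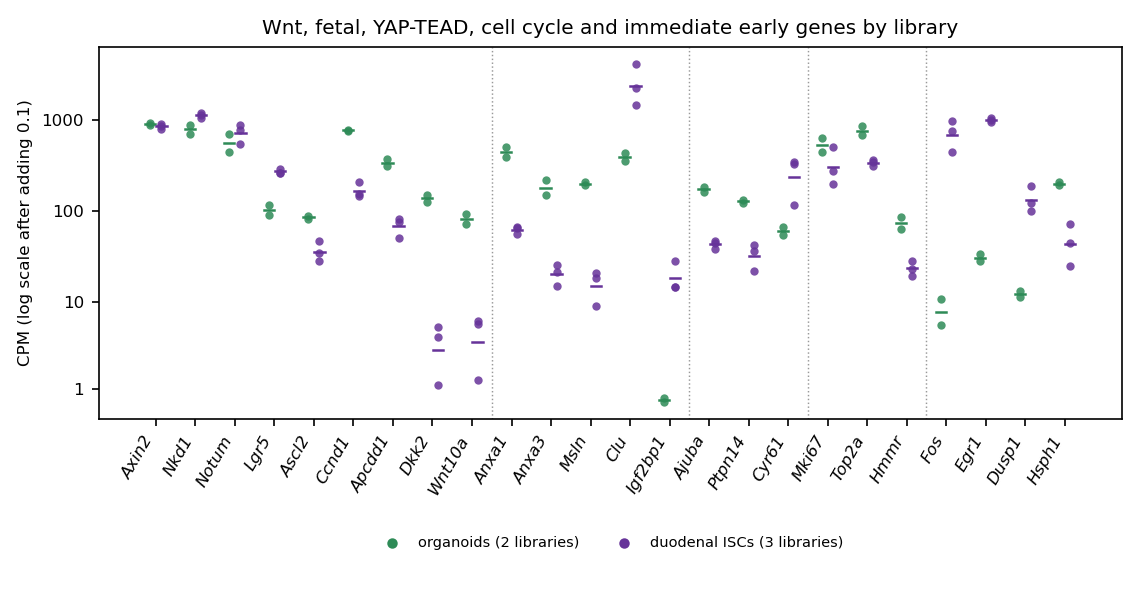
CPM of Wnt and stem cell genes, fetal and regenerative genes, YAP-TEAD targets, mitotic genes and stress genes in the 2 organoid and 3 duodenal ISC libraries (vertical axis, log scale after adding 0.1; 1 point per library, short lines are group means on the plotted scale). Axin2 overlaps between the groups, Dkk2 and Anxa1 are higher in organoids, and Lgr5, Clu, Fos and Egr1 are higher in the ISCs.

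YAP and TEAD act together as the transcriptional end of the Hippo pathway, in which YAP enters the nucleus and TEAD binds DNA at short motifs. Of 23 tested YAP-TEAD targets, 9 rose and 2 fell (median 1.12), and 14 lay wholly above the ISCs in both organoid libraries, where 24.8% of all tested genes did. Without organoid replicate 1, 4 rose and 1 fell, without organoid replicate 2, 3 and 0, and without ISC replicate 3, 13 and 4. The promoters of members that changed and hold the TEAD letters are printed here to show where those letters lie. Each is the 250 bases before the RefSeq start site (GRCm38.p6), 5′ to 3′ on the gene's strand, with GGAATG or its reverse complement CATTCC in capitals.
Ajuba (chr14:54577662-54577911, minus strand): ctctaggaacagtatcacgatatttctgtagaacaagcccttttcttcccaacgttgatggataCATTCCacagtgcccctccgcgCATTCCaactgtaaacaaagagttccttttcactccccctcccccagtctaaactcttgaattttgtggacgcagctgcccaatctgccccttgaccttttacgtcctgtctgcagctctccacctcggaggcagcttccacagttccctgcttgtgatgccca
Ankrd1 (chr19:36119845-36120094, minus strand): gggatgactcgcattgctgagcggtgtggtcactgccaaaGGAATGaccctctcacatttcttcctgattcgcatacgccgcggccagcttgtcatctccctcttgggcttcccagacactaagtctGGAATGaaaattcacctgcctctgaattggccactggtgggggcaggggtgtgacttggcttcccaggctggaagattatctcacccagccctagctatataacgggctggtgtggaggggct
Amotl2 (chr9:102717554-102717803, plus strand): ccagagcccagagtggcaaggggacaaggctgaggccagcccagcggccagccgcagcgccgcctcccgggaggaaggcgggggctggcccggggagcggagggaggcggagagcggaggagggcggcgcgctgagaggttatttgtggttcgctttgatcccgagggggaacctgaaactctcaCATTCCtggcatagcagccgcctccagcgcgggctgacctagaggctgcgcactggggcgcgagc
Ptpn14 (chr1:189728018-189728267, plus strand): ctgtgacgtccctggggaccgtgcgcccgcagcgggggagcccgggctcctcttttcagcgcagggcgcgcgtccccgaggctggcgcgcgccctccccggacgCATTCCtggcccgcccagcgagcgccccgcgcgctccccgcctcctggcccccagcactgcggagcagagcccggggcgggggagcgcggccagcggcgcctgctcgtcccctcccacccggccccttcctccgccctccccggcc
Cyr61 (chr3:145649986-145650235, minus strand): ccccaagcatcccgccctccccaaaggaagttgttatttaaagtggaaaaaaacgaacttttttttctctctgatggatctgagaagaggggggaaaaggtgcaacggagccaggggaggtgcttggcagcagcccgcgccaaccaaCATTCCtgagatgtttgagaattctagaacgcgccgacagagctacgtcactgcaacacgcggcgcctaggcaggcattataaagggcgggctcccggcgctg
Counting from the start site, the letters begin 186 and 164 bases upstream in Ajuba, 210 and 123 in Ankrd1, 65 in Amotl2, 146 in Ptpn14 and 103 in Cyr61. The first 4 rose and Cyr61 fell, so the letters stood before genes of either direction. They were not found in the windows of Myof, Rbms3 and Amotl1, and Ctgf, Arhgef17 and Tead4 have no entry. Of all 32851 promoter windows of this length in the RefSeq table, 12.6% hold the letters on either strand, and 10.9% of those of genes tested. A comparison of shares between gene sets was void, because only 79.0% of tested genes had a promoter in the table. A match is a description of letters and no evidence of binding.

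Ajuba, a LIM-domain scaffold that restrains Hippo kinases, had 184 and 163 CPM in organoids and 46.8, 37.9 and 44.8 CPM in ISCs (2.01 ± 0.20, adjusted p = 0.00152). Ctgf, the matricellular target most often used as a YAP readout, had 59.5 and 74.2 CPM against 17.6, 14.4 and 14.8 CPM (2.10 ± 0.23, adjusted p = 0.00186). Myof, a membrane repair protein, had 194 and 279 CPM against 59.7, 42.3 and 63.9 CPM. These 3 kept the call with each of the 5 libraries left out. Ptpn14, a phosphatase that holds YAP back, had 124 and 133 CPM against 36.4, 21.7 and 42.3 CPM, and its call was lost without organoid replicate 2 (adjusted p = 0.0563). Ankrd1, a muscle ankyrin-repeat protein, rose by 1.73 and Amotl2, an angiomotin that binds YAP, by 1.2; both calls were lost without either organoid library, and that of Ankrd1 also without ISC replicate 2. Cyr61, a close relative of Ctgf and also an immediate early gene, was the clearest exception. It had 66.3 and 54.1 CPM in organoids and 329.9, 347 and 116 CPM in ISCs (-2.13 ± 0.48, adjusted p = 0.0263; 0.0686 to 0.188 without either organoid library or ISC replicate 1). Amotl1 fell by 1.39, a call lost in the same 3 fits.

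Genes of the mature absorptive cell were far lower in the organoids. Of 34 enterocyte genes, 0 rose and 24 fell (median -3.83), and 16 fell without organoid replicate 1 and 16 without organoid replicate 2. Apoa4, an apolipoprotein of chylomicrons, had 749, 284 and 162 CPM in ISCs and 0 and 0.162 CPM in organoids, a ratio of 5740 to 1 (95% counting interval 1960 to 27800). Alpi, the brush border alkaline phosphatase, had 156, 72.3 and 43.5 CPM against 0 and 0.108 CPM (ratio 1950, 539 to 16100). Fabp1, the liver-type fatty acid carrier, had 172, 82.9 and 37.1 CPM against 0 and 0.0539 CPM. The organoids were near the detection floor for all 3. Sis, sucrase-isomaltase, fell from 200.3, 92.1 and 158 CPM to 5.36 and 4.20 CPM (-4.97 ± 0.42, adjusted p = 0.000984), and Krt20, a keratin of surface cells, from 75.7, 57.0 and 41.4 CPM to 3.50 and 1.99 CPM. Vil1, which encodes the brush border protein villin and is used along the whole crypt-villus axis, had 328 and 329 CPM against 359.8, 407 and 202 CPM (0.02 ± 0.32, adjusted p = 0.970). The summed level of the list was 718 to 727 CPM in organoids and 2931 to 4610 CPM in the ISCs, so sorted ISC libraries held absorptive transcripts; their part in the stem cell values was not tested.

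Secretory lineages differed among themselves. Of 20 goblet genes, 4 rose and 2 fell (median -0.13), and 5 or 6 fell without ISC replicate 1 or 3. Tff3, the trefoil peptide of goblet cells, had 247 and 164 CPM in organoids and 43.1, 40.1 and 26.3 CPM in ISCs (2.49 ± 0.29, adjusted p = 0.00233). Guca2a, which encodes guanylin, had 72.3 and 75.7 CPM against 9.78, 16.1 and 13 CPM. Atoh1, the master factor of the secretory lineage, had 25.1 and 20.2 CPM against 5.6, 5.98 and 5.40 CPM, a call lost without organoid replicate 1 (adjusted p = 0.0672). Zg16, a goblet lectin, fell from 42.0, 33.1 and 31.8 CPM in ISCs to 0.727 and 0.0539 CPM. Muc2, the main intestinal mucin, had 61.9 and 35.3 CPM in organoids and 121, 159.8 and 549 CPM in ISCs and missed the threshold (adjusted p = 0.0519; 0.00318 without ISC replicate 3).

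Of 17 tested tuft cell genes, 9 fell and 1 rose (median -2.39), but 1 fell without either organoid library and 4 without ISC replicate 1. Avil, which encodes the actin-binding protein advillin, had 51.6 and 36.4 CPM in organoids and 221, 226 and 245 CPM in ISCs (-2.39 ± 0.25, adjusted p = 0.00165). Ptgs1, the cyclooxygenase of tuft cells, was the riser, at 72.9 and 70.1 CPM against 10.2, 8.38 and 11.2 CPM (2.85 ± 0.23, adjusted p = 0.000943). Among 18 Paneth genes, 6 fell and 0 rose (median -0.61; 2 without either organoid library), and 8 of the 18, mostly defensins, share sequence with relatives and are uncertain. Lyz1, the Paneth lysozyme and one of the most abundant genes in the ISCs, had 3787 and 2762 CPM against 4490, 7486 and 4664 CPM and was not called. Among 25 tested enteroendocrine genes, 3 rose and 0 fell (median 0.57; 1 without organoid replicate 1). The proglucagon gene Gcg had 309 counts in organoid replicate 1 and 7 in organoid replicate 2, so this gene differed between the replicates and was below the filter.

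Genes of DNA replication and mitosis were higher in organoids. Of 40 such genes, 18 rose and 0 fell (median 0.90), and 35 lay wholly above the ISCs in both organoid libraries, where 24.8% of all tested genes did. The count of calls was 3 without organoid replicate 1, 1 without organoid replicate 2, 6 without ISC replicate 1 and 32 without ISC replicate 3. Hmmr, a spindle protein, had 63.6 and 86.5 CPM in organoids and 23.0, 19.4 and 28.4 CPM in ISCs (1.67 ± 0.26, adjusted p = 0.0068), lost without organoid replicate 2 (0.0801). Top2a, the topoisomerase of dividing cells, had 686 and 852 CPM against 342, 314 and 360.4 CPM (1.18 ± 0.22), lost without either organoid library. Mki67, the proliferation antigen, had 449.9 and 636 CPM against 274, 200.4 and 503 CPM, overlapped between groups and did not pass (adjusted p = 0.256). Only 1 of 28 ribosome biogenesis genes was called, the rRNA methylase gene Fbl, at 1.03, a call lost without either organoid library or ISC replicate 1.

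Immediate early genes, which respond within minutes to growth factors and to tissue dissociation, were low in organoids. Of 26 tested, 13 fell and 2 rose (median -1.41), and 9 fell without either organoid library. Fos, a subunit of AP-1, had 5.50 and 10.6 CPM in organoids and 757, 973 and 440.1 CPM in ISCs (-6.50 ± 0.55, adjusted p = 0.000943). Fosb had 0.182 and 0.323 CPM against 202, 230 and 76.2 CPM. The zinc finger factor Egr1 had 33.6 and 27.9 CPM against 1040, 1006 and 939.9 CPM (-5.02 ± 0.27, adjusted p = 0.000508). All 3 ISC libraries were high for each of these. The nuclear receptor gene Nr4a1 fell by 4.72 and Dusp1, a MAP kinase phosphatase, by 3.48. The 2 that rose were heat shock genes: Hsph1 had 206 and 192 CPM against 44.4, 72.6 and 24.6 CPM (2.07 ± 0.40, adjusted p = 0.0157), and Hspa1b, uncertain because of its near-identical neighbour, rose by 1.90. The Hsph1 call was lost without either organoid library or ISC replicate 1 (adjusted p = 0.0566 to 0.0976), and that of Hspa1b without organoid replicate 1 (0.0518). The share of these differences that arose during dissociation and sorting was not tested.

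Genes of defence and antigen presentation were also lower in culture. Of 7 tested MHC class II genes, 4 fell (median -3.04; 1 without either organoid library, 2 without ISC replicate 2 and 6 without ISC replicate 3), and H2-Aa, an alpha chain, had 6.17, 10.1 and 26.5 CPM in ISCs and 0 and 0.0539 CPM in organoids (ratio 517, 92.5 to 20400). Of 32 interferon response genes, 14 fell and 1 rose (median -1.39; 2 fell without organoid replicate 1 and 2 without organoid replicate 2). Psmb8 and Psmb9, subunits of the immunoproteasome, fell by 3.20 and 2.95 and kept their calls in all 5 single-library fits. Of 25 host defence genes, 12 fell and 1 rose (median -1.49; 5 fell without organoid replicate 1 and 3 without organoid replicate 2). Reg3b, a secreted antibacterial lectin, had 896, 2459 and 3783 CPM in ISCs and 44.6 and 18.6 CPM in organoids (-6.23 ± 0.80, adjusted p = 0.00334). Lcn2, the iron-scavenging lipocalin, had 71.6, 168 and 649.5 CPM against 1.41 and 0.485 CPM, a call lost without organoid replicate 2 (adjusted p = 0.0604). ISC replicate 3 was highest for H2-Aa, Reg3b and Lcn2. Cxcl16, a chemokine, was the host defence gene that rose (2.15 ± 0.27).

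Transcripts of other cell types were uneven. The summed level of 17 immune cell markers was 10.2 to 16.2 CPM in organoids and 31.2 to 37.6 CPM in ISCs; of 8 tested, 4 fell (0 without organoid replicate 1, 1 without organoid replicate 2 and 2 without ISC replicate 2), and Ptprc, the pan-leukocyte gene, had at most 1.95 CPM in any of the 5 libraries. Gzma, a lymphocyte gene, was at 1.88 to 2.54 CPM in ISCs with 1 count in the organoids, a call lost without organoid replicate 1. Cd3e, Cd3g and Cd8a had 3 to 13 counts per ISC library and were below the filter. Cd68 fell from 14.2, 17.9 and 23.9 CPM in ISCs to 5.31 and 6.09 CPM in organoids (adjusted p = 0.0174). Its call was lost without either organoid library. The part of immune cells in the MHC class II and interferon values was not tested. Of 13 tested stromal and endothelial genes, 2 fell and 0 rose. Without organoid replicate 2 the number was 0. With levels scaled over all 13 libraries, as for every summed level given here, that list summed to 581 to 713 CPM in organoids and 479 to 714 CPM in ISCs. Most of it was Vim, which encodes vimentin, at 528 and 686 CPM in organoids and 609.8, 551 and 306 CPM in ISCs on that scale. Pecam1, an endothelial marker, had no organoid count and 8 to 18 counts per ISC library.

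Basement membrane and adhesion genes rose in part: 6 of 23 rose and 0 fell (median 0.34; 1 without either organoid library, 2 and 3 without ISC replicate 1 and 2, and 10 without ISC replicate 3). Fn1, which encodes fibronectin, had 1036 and 573 CPM in organoids and 88.4, 59.6 and 95.8 CPM in ISCs (3.31 ± 0.34, adjusted p = 0.00158). Lama3 and Lamb3, chains of laminin-332, rose by 1.43 and 1.19, calls lost without either organoid library, that of Lamb3 also without ISC replicate 1. Among Notch pathway genes, the ligand Jag1 (2.22 ± 0.31) and the receptor Notch3 (2.33 ± 0.30) rose, calls lost without organoid replicate 2 (adjusted p = 0.0558 and 0.0542). The target Hey1 fell from 5.41, 7.99 and 12.4 CPM in ISCs to 0.227 and 0.269 CPM in organoids. In the Notch list, 4 of 16 tested genes rose and 1 fell, and 2 and 1 rose without organoid replicate 1 and 2. Among BMP pathway genes, Bmp2 and Bmp4, ligands, and Nog, an antagonist, rose (3 of 18 higher, 2 lower), but 0 of these 5 calls were kept without either organoid library, that of Nog was also lost without ISC replicate 1 or 2, and without ISC replicate 3 the counts were 5 and 8. Of 24 EGF and MAPK feedback genes, 2 rose and 5 fell (median -0.23); without organoid replicate 1, organoid replicate 2, ISC replicate 1 and ISC replicate 3 the falls were 1, 0, 1 and 8, and the rises 1, 1, 1 and 5. Of 23 genes of the unfolded protein response, 1 rose and 2 fell (median -0.03), and 0 were called without either organoid library; without ISC replicate 3 the counts were 2 and 4.

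Lipid metabolism divided by direction. Of 25 cholesterol synthesis genes, 8 rose and 0 fell (median 0.53), and 17 lay wholly above the ISCs, where 24.8% of all tested genes did. The count of calls was 1 without either organoid library, 2 without ISC replicate 1 and 14 without ISC replicate 3. Hmgcs1, the enzyme that makes HMG-CoA for sterols, had 329.8 and 425 CPM in organoids and 179.5, 179 and 180.5 CPM in ISCs (1.07 ± 0.21, adjusted p = 0.0167; 0.0917 and 0.198 without organoid replicate 1 and 2, 0.0630 without ISC replicate 1). Of 25 tested genes of fatty acid oxidation and PPAR response, 0 rose and 11 fell (median -0.98; 3 without either organoid library and 18 without ISC replicate 3). Creb3l3, a transcription factor of lipid handling, fell by 6.91 and Pdk4, which diverts pyruvate from oxidation, by 2.44, and both kept their calls with each library left out. Glycolysis and hypoxia genes showed little net change, with 4 of 27 higher, 1 lower and a median of 0.01 (7 of the 27 share sequence with relatives and are uncertain); 1 rose without organoid replicate 2 and 2 without ISC replicate 1. With genes that share sequence left out, 1 rose. The organoid replicates differed in several hypoxia genes of this list, so its median does not describe each culture. In organoid replicates 1 and 2, Bnip3 had 22.3 and 100.8 CPM, Car9 20.9 and 65.8 CPM, and Ero1l 52.6 and 119.5 CPM. Ddit4 was not higher in organoid replicate 2 (153 and 128.5 CPM). Pfkfb3, an activator of glycolytic flux, rose (1.88 ± 0.20, adjusted p = 0.00182).

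**Figure D3:**
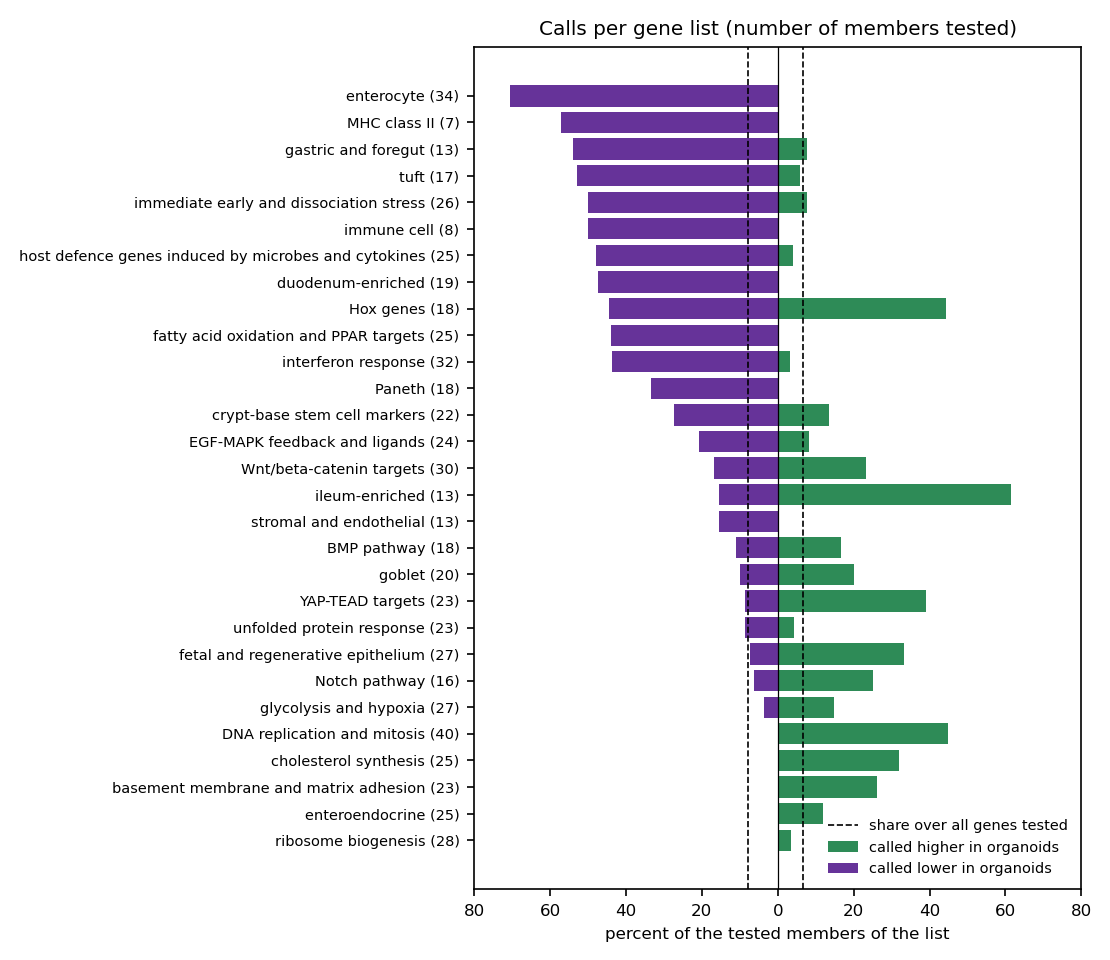
Percent of each list's tested members called higher (green, right) or lower (purple, left) in organoids than in duodenal ISCs. Dashed lines mark the shares over all 14433 tested genes, 6.73% higher and 7.88% lower; enterocyte, MHC class II and gastric genes reach furthest to the left and ileum-enriched, mitotic and Hox genes furthest to the right.

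The genes with the largest rises outside the lists above included Atp5l, a subunit of ATP synthase (5.35 ± 0.27), Enah, an actin regulator (4.80 ± 0.35), Krt4, a keratin of stratified epithelia (4.41 ± 0.32), Eda2r, a receptor of the ectodysplasin family (4.19 ± 0.34), and Nrp2, a semaphorin coreceptor (4.12 ± 0.27). Each of these 5 had adjusted p of 0.000943 or less and kept its call with any library left out. Atp5l stood at 72.2 and 70.4 CPM against 1.73, 2.01 and 1.45 CPM. Its change was more positive than that of the WT pair, described below, by 5.70 on the log2 scale. The ISC libraries are also the stranded ones, and the part of library preparation in the Atp5l values was not tested. Among the largest falls, Zbtb16 and Cym were at 0 in both organoid libraries and at least 356-fold and 409-fold lower. Dmbt1, a mucosal scavenger protein, had 824, 1098 and 2599 CPM in ISCs and 0.227 and 3.18 CPM in organoids. Lrg1, a secreted leucine-rich glycoprotein, had 18.5, 75.0 and 229 CPM against 0.0454 and 0.0539 CPM, with each ISC replicate at its own level; its call was lost without organoid replicate 1 (adjusted p = 0.0584) or organoid replicate 2 (0.0561).

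A WT pair of libraries shows the same change of setting with intact Apc, and both of its groups are labelled ileal. The extraction text names the duodenum for these samples too, so region is constant in this pair by label only. The labels give 2 WT organoid libraries (genotype WT, 10 dpi) and 2 ileal ISC libraries of Apcfl/fl;Lgr5DTR-GFP;Rosa26tdTomato mice without Cre (21 dpi), all adult and given the same tamoxifen. The organoids of that pair are whole cultures as well. By Xist, both WT organoid libraries read as male (0.21 and 0.26 CPM) and both WT ileal ISC libraries as female (675 and 716 CPM). Sex therefore changes with the setting in that pair, and their parts cannot be told apart. In it 1026 of 12978 tested genes (7.91%) were called, 473 higher (3.64%) and 553 lower (4.26%). The number was 757 without WT ISC replicate 2 and 1783 without WT organoid replicate 2. Of the genes called in the ISC-Cre pair and tested in both, 70 of 741 rose in both (9.45%, or 15% of those that rose in the WT pair) and 137 of 897 fell in both (15.3%, or 25.1%). A further 23 rose in the ISC-Cre pair and fell in the WT pair, and 74 the reverse. The pairs share no library.

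The difference between the 2 pairs was tested as an interaction in a fit of all 13 libraries, where 768 of 15208 genes (5.05%) were called, 321 (2.11%) more positive in the ISC-Cre pair and 447 (2.94%) more negative. Without ISC-Cre organoid replicate 1 the number was 287, and it was 326 without WT organoid replicate 1, 329 without WT ISC replicate 2, 348 without ISC-Cre organoid replicate 2, 468 without WT ISC replicate 1 and 511 without duodenal ISC replicate 1. Region, Apc status, reporter strain, time and dissociation enzyme differ between the pairs and cannot be told apart. Strandedness adds to these, as second-strand counts were 98.50% to 98.85% in the duodenal ISCs and 49.63% to 49.70% in the WT ileal ISCs. Sex does too, as it changed with the setting in the WT pair.

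Enterocyte genes differed most by this test: 24 of 34 were more negative in the ISC-Cre pair and 0 more positive. In the WT pair 11 of them rose and 2 fell (median 1.00). Apoa4 had 299 and 134 CPM in WT organoids and 1.10 and 0.764 CPM in WT ileal ISCs, and its interaction was -20.09 ± 1.44 (adjusted p = 4.1e-05). Both WT organoid libraries therefore held a gene that was at or near 0 in both ISC-Cre organoid libraries. Duodenum-enriched genes also went apart, with 10 of 18 higher in WT organoids and 11 of 19 with a more negative interaction. Gata4 had 83.3 and 84.5 CPM in WT organoids and 16.6 and 48.1 CPM in WT ileal ISCs, so WT organoids of ileal label held more of it than either ISC-Cre organoid library; the interaction was -4.16 ± 0.70 (adjusted p = 0.00534).

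In the WT pair 17 of 25 immediate early and stress genes fell (median -2.18), Fos by 5.12 and Egr1 by 4.43, and the interaction of neither gene passed the test (adjusted p = 0.226 and 0.655). Of 26 such genes, 5 had a positive interaction and 0 a negative one: the heat shock genes Hspa1a, Hspa1b, Hsph1 and Dnajb1 and the AP-1 gene Jund. The values of the near-identical Hspa1a and Hspa1b are uncertain. Hspa1b was at 8 and 5.84 CPM in WT organoids and 538 and 697 CPM in WT ileal ISCs, with an interaction of 8.43 ± 0.50 (adjusted p = 7e-06). MHC class II genes fell in 7 of 7 cases in the WT pair (median -9.22), and 3 of 7 had a positive interaction. Cholesterol synthesis genes rose in 21 of 25 cases in the WT pair (median 1.43), and 1 of 25 differed by the interaction. Glycolysis and hypoxia genes rose in 21 of 27 (median 2.12), and 10 of 27 had a more negative interaction in the ISC-Cre pair.

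Of 22 stem cell markers, 1 had a positive and 4 a negative interaction. Lgr5 had 205 and 223 CPM in WT organoids against 96.4 and 61.8 CPM in WT ileal ISCs, a rise of 1.43 ± 0.22 (adjusted p = 0.0154), and its interaction was -2.79 ± 0.49 (adjusted p = 0.00651). For Lgr5 the order of culture and sorted cells was thus inverted relative to the ISC-Cre pair. By the labels the WT ileal ISCs carry Lgr5DTR-GFP and the WT organoids do not. The part of that allele in the Lgr5 values was not tested. Clu rose by 3.45 in the WT pair, from 2.50 and 3.57 CPM to 12.4 and 54.8 CPM (interaction -6.16 ± 0.95). For goblet genes, 15 of 20 fell in the WT pair and 6 of 20 had a positive interaction, where WT ileal ISCs summed to 15550 to 17880 CPM over the list against 998 to 1605 CPM in duodenal Apc-null ISCs. Atoh1 fell by 1.28 in the WT pair (interaction 3.31 ± 0.34, adjusted p = 0.000304). Ajuba rose by 2.23 in the WT pair (interaction adjusted p = 0.948), so this YAP target was higher in both kinds of organoid.

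**Figure D4:**
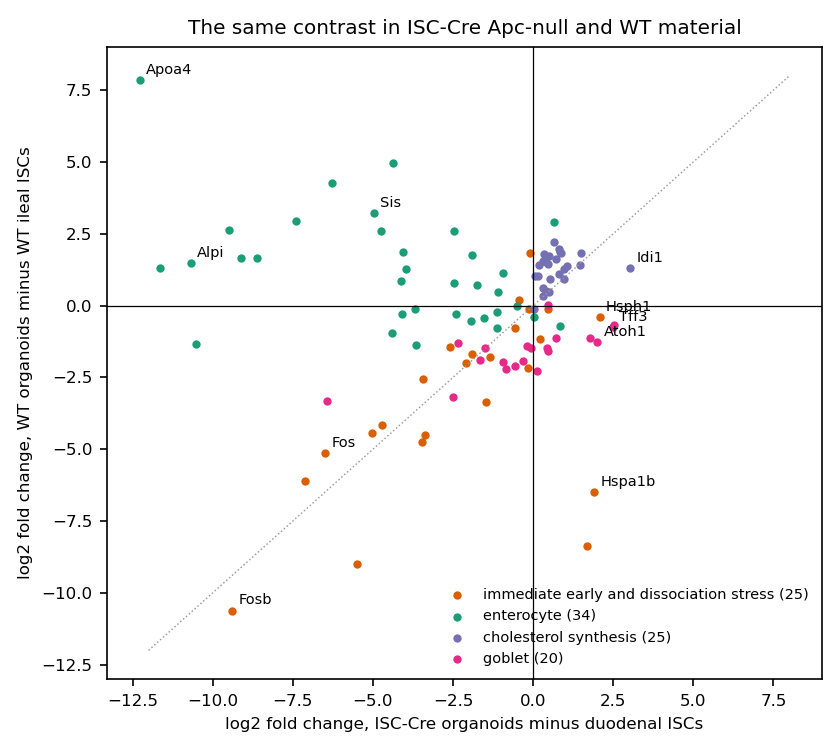
Log2 fold change of organoids minus ISCs in the ISC-Cre Apc-null pair (horizontal axis) and in the WT pair (vertical axis) for genes of 4 lists; each point is a gene and the dotted line marks equal values. Most immediate early genes lie low on both axes, most cholesterol genes lie to the upper right of the origin, and most enterocyte genes lie to the left and above the line, while Hspa1b and Atoh1 lie to the lower right.

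In the Sec-Cre Apc-null pair, with Cre driven by Atoh1, 5042 of 13834 genes (36.4%) were called between organoids and ileal ISCs. The organoids are labelled 10 dpi and the ileal ISCs 21 dpi, after the same tamoxifen. Unmapped reads made up 57.0% and 35.8% of Sec-Cre ISC replicates 1 and 2. The 10 most abundant genes took 51.0% and 8.28% of their gene counts, and Paneth genes summed to 796400 and 11210 CPM. These CPM are per TMM-scaled library size and are not shares of the gene counts. Across all 3 pairs, 38 genes rose in each and 112 fell in each, of 737 and 868 called in the ISC-Cre pair and tested in all. Those that rose in each included Nts, Ajuba, Anxa3, Lamb3 and Hmgcs1. Those that fell in each included Fos, Fosb, Egr1, Dusp1, H2-Aa, Psmb8, Reg3b, Dmbt1 and Zg16. The Sec-Cre ISC libraries differed strongly from each other, and the calls of that pair were 10059 without Sec-Cre ISC replicate 1 and 2201 without Sec-Cre organoid replicate 1.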

How the data were processed

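Bulk RNA-seq of 13 libraries was deposited as 1 table of gene counts per library, and the 5 ISC-Cre libraries described above were taken by their titles. Per the submitters' processing notes the authors used STAR, DESeq2 1.22.2 and the build mm10; the annotation behind the counts is not given in the sources used here. The deposited counts are whole reads per gene, and the column for both strands (column 2) was used. The 4 summary lines of each table entered neither library sizes nor tests. No column belonged to other samples.

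Gene symbols (23685 of 24054) were matched to GENCODE vM21 on GRCm38. Genes with over 20% of their 31-base words in a transcript of another gene were called uncertain. Counts were tested in R 4.3.3 with edgeR 4.0.16 (filterByExpr by group with a minimum count of 10, TMM, quasi-likelihood test, Benjamini-Hochberg adjustment over all genes of a fit, threshold 0.05). The 5 libraries formed the main fit (3 residual degrees of freedom, biological coefficient of variation 0.314), and the WT and Sec-Cre pairs formed fits of 4 libraries. Interactions used all 13. The Wald test alternative used DESeq2 1.42.0. The package limma 3.58.1 was loaded, and no limma fit was run. CPM values are from TMM-scaled library sizes, over the 5 libraries for the ISC-Cre pair and over 13 for the others. The prior count of fitted fold changes was 0.125, and a group without counts was set at 3 counts over the group. The 95% counting intervals cover counting error only. The scripts were tested on simulated data. Figures were drawn with Python 3.11.15 and matplotlib 3.10.9.

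The rule for named genes took Apc, Lgr5, Axin2 and Gata4, the 10 largest rises and falls among called genes with mean log2 CPM of at least 4 and no overlap, the 10 most abundant genes of each group, and the 3 called members of each list with the smallest adjusted p per direction. The largest changes left out predicted models, mitochondrial, ribosomal RNA, histone, antigen receptor and sex-linked genes, uncertain genes, and genes with under 80% of ISC reads on the second strand. Other genes are given because of their known roles and were chosen after their values were seen: Nkd1, Notum, Wnt6, Ccnd2, Dkk3, Olfm4, Ly6a, Sis, Vil1, Krt20, Muc2, Muc6, Gkn1, Cldn18, Onecut2, Pdx1, Osr2, Hoxa10, Hoxb5, Nr4a1, Dusp1, Ankrd1, Amotl2, Ptpn14, Top2a, Mki67, Lcn2, Vim and Ptprc. Hspa1a, Dnajb1 and Jund are named for their interaction, and Bnip3, Car9, Ero1l and Ddit4 for their organoid values, also after their values were seen. A few named genes are not reported here. The libraries, the 29 gene lists and the tests were chosen with earlier results of these data known.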

Additional observations from a re-analysis of the deposited data

Results flagged for a closer look

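The change from sorted ISCs to organoids differed between the ISC-Cre Apc-null pair and the WT pair for 768 genes by the interaction test in 13 libraries, 321 more positive and 447 more negative in the ISC-Cre pair. Against the Sec-Cre pair the number was 4075, with 1869 more positive and 2206 more negative. Of the 133 genes named by rule, 42 passed the test against the WT pair, 22 more positive and 20 more negative. Of these, 21 were also called in the WT pair, 15 of them in the opposite direction. Values are log2 differences of the ISC-Cre minus the WT change, and those of genes near 0 in a group depend on the prior count.

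Hox genes had the largest positive differences, with Hoxb8 at 15.89, Hoxb9 at 14.05, Hoxb7 at 11.99 and Hoxb6 at 11.73, while Hoxa5 had -8.74. Lipid-handling and brush border genes of the enterocyte had the largest negative ones: Apoa4 at -20.09, Fabp1 at -12.90, Alpi at -12.12, Apoa1 at -12.06, Rbp2 at -10.74, Mttp at -5.22 and Anpep at -2.26. The lipid regulator gene Creb3l3 had -12.04. Gastric genes followed with Gkn3 at -11.83 and Pgc at -10.93. Proximal and crypt genes had -4.16 (Gata4), -2.92 (Aqp4) and -2.79 (Lgr5). Dmbt1 had -6.44, Clu -6.16, the peptide hormone gene Adm -5.94, the EGF-family ligand gene Btc -2.90 and the ETS factor gene Etv5 -2.01.

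Among secretory genes, Sct, which encodes secretin, had 4.00, Atoh1 3.31, Tff3 3.27, Guca2a 3.23, Nts 3.19 and Sytl2 2.92. Interferon genes were more positive as well, with Zbp1 at 3.95, Bst2 at 3.74, Psmb8 at 3.37 and Psmb9 at 2.04. The heat shock gene Hspa1b had 8.43, which is uncertain because of its near-identical neighbour, and Hsph1 had 2.50. The rest were Atp5l at 5.70, Nrp2 at 3.93, Myof at 3.34, Ccnd1 at 2.77, Jag1 at 1.99 and Hmmr at 1.29.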

How the results depend on the processing

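In the ISC-Cre pair the 2109 calls (971 higher, 1138 lower) became 3272 (1489 and 1783) with the DESeq2 Wald test and 746 (314 and 432) with an edgeR test against a 2-fold change. Leaving out 1 library gave 507 to 4744 calls (244 to 2208 higher and 262 to 2536 lower), the fewest without organoid replicate 2 and the most without ISC replicate 3. Other settings gave 1794 to 2435. The called genes kept their direction wherever they were tested, except 2 of 2101 when second-strand counts were used for the ISCs. Leaving out the genes that share sequence was chosen after seeing the data; 14.7% of those genes were called higher against 5.98% of the rest.

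Leaving out 1 library gave 757 to 1783 calls in the WT pair (350 to 915 higher, 377 to 868 lower) and 2201 to 10059 in the Sec-Cre pair (968 to 5198, 1230 to 4861). The interaction with the WT pair ranged from 287 to 872 (110 to 361, 176 to 511) and that with the Sec-Cre pair from 2323 to 4894 (1050 to 2154, 1208 to 2848). Without the low-count filter the WT pair had 2312 calls (1092 and 1220). The cause of these shifts was not tested.

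The replicate numbers did not pair the samples: same-numbered deviations correlated at -0.0655 and -0.187. A fit with the replicate number as a block, which leaves ISC replicate 3 without a partner, gave 4721 calls (2140 and 2581), and 4915 (2332 and 2583) with a transcript length offset. Some values changed sign. Apc had 0.068 with the block and -0.70 to 0.054 with 1 library left out, and Rn45s had 0.75 with the block, with or without the length offset, and -2.995 to 0.95 with 1 library left out. Vil1 had -0.22 with the block, -0.20 with the block and length offset, and -0.23 to 0.24 with 1 library left out. Olfm4 had -0.99 to 0.32 with 1 library left out. Apc, Vil1 and Olfm4 were not called in any fit listed here. The part of read depth in the number of calls was not tested.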

Other observations

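Genes induced by the tumour suppressor p53 were looked at as a group after their values were seen. Of 25 such genes, all tested, 9 were higher in ISC-Cre Apc-null organoids than in duodenal ISCs and 0 were lower, with a median log2 fold change of 0.75; over all genes 6.73% were higher. Cdkn1a, which encodes the cell cycle inhibitor p21, had 245 and 272 CPM in organoids and 65.9, 58.0 and 78.8 CPM in ISCs (1.94 ± 0.22 SE, edgeR adjusted p = 0.00207). Phlda3, an inhibitor of Akt, had 93.6 and 85.8 CPM against 14.2, 16.9 and 8.85 CPM (2.75 ± 0.30, adjusted p = 0.00184). Ccng1, which encodes cyclin G1, had 314 and 389 CPM against 86.7, 94.8 and 134 CPM, and Bbc3, which encodes the death protein PUMA, had 53.5 and 39.2 CPM against 12.0, 11.8 and 4.00 CPM. Cdkn1a and Phlda3 kept their calls with each of the 5 libraries left out, while Ccng1 lost it without organoid replicate 2 (adjusted p = 0.0658) and Bbc3 without either organoid library. Mdm2, the ligase that degrades p53, had 127 and 172 CPM against 69.8, 65.8 and 105 CPM and was not called (adjusted p = 0.0648).

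Genes called higher in organoids in all 3 pairs included Nes, which encodes nestin (log2 fold change 4.55 in the ISC-Cre, 4.58 in the WT and 6.02 in the Sec-Cre pair), and Phlda3 (2.75, 2.96 and 5.17).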
